A study of Xenopus laevis with 12 samples.

Results

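The Iroquois (irx) genes are followed here in animal caps, explants cut from the embryonic ectoderm, of Xenopus laevis frogs with and without injected Geminin RNA. Every probe set whose gene symbol in the array annotation starts with irx and a digit was taken, which gave 5 of 15491 probe sets, 1 each for irx1.L, irx2.L, irx3.L, irx4.L and irx5.L. The suffix .L marks the copy of a gene on the long chromosome of this allotetraploid frog, and 0 of the 5 probe sets were annotated to a short-chromosome (.S) copy. RNA was hybridised to 12 one-colour Affymetrix arrays, 3 in each of 4 groups: Geminin-injected explants at stage 12 (late gastrula), uninjected explants at stage 12, Geminin-injected explants at stage 10.5 (early gastrula) and uninjected explants at stage 10.5. The injected RNA encodes a form of Xenopus Geminin named as lacking its coil. It was given at 300 pg to the animal hemisphere of both cells of the 2-cell embryo, with no promoter that limits it to a cell type. The caps, 80 per sample, were cut at stage 8 to 9 and incubated in 0.7x MMR at 25 °C in every group. Uninjected caps served as the only control, which leaves injection as such and Geminin together in each difference. Each experiment paired an injected with an uninjected sample and was done 3 times per stage.

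Iroquois proteins are homeodomain transcription factors of the TALE class. In the Xenopus gastrula they are expressed in dorsal ectoderm, where they take part in the choice of neural fate, promote proneural genes and act against BMP4 expression, and later they pattern the neural plate, the placodes and the pronephros. The vertebrate genes lie in clusters. In the RefSeq annotation of the Xenopus_laevis_v10.1 assembly irx4.L, irx2.L and irx1.L follow each other with a noncoding RNA gene in each gap, while irx3.L and irx5.L lie on another chromosome. Positions are left out because the sources name no build for the array.

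Geminin-injected explants had on average 0.190 of the uninjected irx1.L and 0.20 of the uninjected irx2.L signal at stage 10.5. At stage 12 they had 0.549 and 0.525 of it. In uninjected explants both genes fell between the stages. In Geminin-injected explants they were already low at stage 10.5 and did not pass the test for a change by stage 12. The probe sets of irx3.L, irx4.L and irx5.L were dim in all 4 groups.

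**Figure D1:**
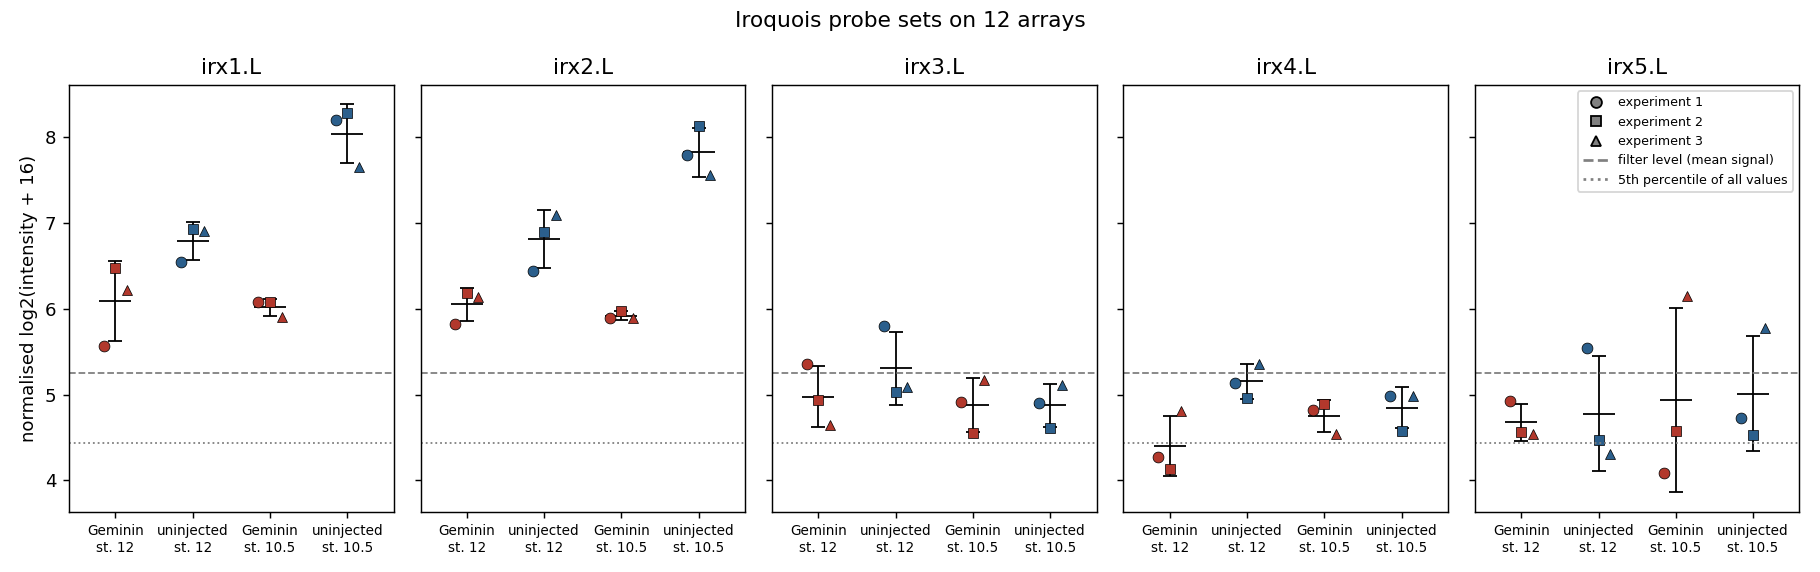
Normalised log2(intensity + 16) of the 5 Iroquois probe sets (y axis) on each array, by group (x axis), with experiments as symbols and the mean ± SD of 3 arrays as bars. Uninjected stage 10.5 arrays stand above the other groups for irx1.L and irx2.L, whereas the group means of irx3.L, irx4.L and irx5.L lie near or under the filter level of 5.26 (dashed), with single irx5.L arrays up to 6.14.

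The array gave gmnn.L, the injected gene, at deposited intensities between 3446 and 10464 for injected explants of stage 10.5, against 233 to 375 for uninjected ones. At stage 12 it was 3203 to 13754 in Geminin-injected explants, against 116, 278 and 4576 in uninjected experiments 1, 2 and 3. High gmnn.L signal was thus present in experiment 3 of the arrays labelled uninjected at stage 12. The stage 12 values of irx1.L, irx2.L and irx4.L and the uninjected stage fall are also given without that array. So are the stage 12 counts of the proneural, neural plate, border and BMP lists. The gmnn.S probe set was not raised there, with 49.86, 261.2 and 250.0 in uninjected experiments 1, 2 and 3 at stage 12. In Geminin-injected explants of stage 12 it gave 144.9, 512.6 and 510.4. Experiments 2 and 3 of stage 12 were closely alike (r = 0.982 between Geminin-injected and 0.990 between uninjected arrays), and the sources do not say whether they came from separate egg batches. The arrays had median intensities between 49.05 and 145.7, and deposited values are therefore compared within a pair, whose medians differed by at most 0.05 on the log2 scale. Markers of epidermis were bright in every group, with a mean normalised level of 7.0 to 10.96 over 10 genes on the arrays. The mean levels of mesoderm markers (4.74 to 5.23 over 9 genes) and of organizer markers (4.79 to 5.16 over 12 genes) lay under the filter level of 5.26, although 2 genes of each list passed the filter.

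At stage 10.5 irx1.L, which promotes neural fate in the dorsal ectoderm, had deposited intensities of 46.65, 91.7 and 34.06 in Geminin-injected explants of experiments 1, 2 and 3, against 240.9, 525.9 and 169.1 in uninjected ones. Each injected value was 0.174 to 0.201 of its uninjected partner (mean 0.190 ± 0.014, SD, n = 3 pairs). The groups did not overlap, and the lowest uninjected value was above the highest injected one. Its neighbour irx2.L had 39.21, 82.2 and 33.44 units in Geminin-injected explants, against 179.8, 476.7 and 158.9 in uninjected ones, ratios of 0.172 to 0.218 (mean 0.20 ± 0.024). These groups did not overlap either.

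The place of a probe set among all probe sets of its own array does not depend on the scaling between arrays. By this measure irx1.L stood at the 38.9th to 41.9th percentile of the Geminin-injected arrays, against the 67.7th to 76.8th of the uninjected arrays at stage 10.5. For irx2.L these were the 38.6th to 40.2nd percentile in Geminin-injected arrays and the 66.4th to 74.7th in uninjected arrays. Both genes thus ranked below the middle of the array in every injected sample and in the upper part in every uninjected one.

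Averaged on the normalised log2 scale, irx1.L was at 6.02 ± 0.10 in Geminin-injected and 8.04 ± 0.34 in uninjected explants (SD, n = 3 each), and irx2.L at 5.92 ± 0.05 and 7.83 ± 0.29. In limma's fit with the experiment as a block irx1.L fell by 2.02 ± 0.17 (SE, n = 3 pairs), 4.06-fold, with adjusted p = 5.38e-05. irx2.L fell by 1.91 ± 0.17, or 3.75-fold (limma adjusted p = 5.90e-05). Over the 11618 probe sets tested 7.06% were called lower at this stage, and 8.29% had injected values all below the uninjected ones. Counted from the largest fall, irx1.L was number 40 and irx2.L number 55 of the 11618. In bulk explants fewer cells expressing a gene and less RNA per cell cannot be told apart.

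At stage 12 the difference was smaller and less even between pairs. The deposited intensity of irx1.L was 19.11, 72.27 and 60.33 in Geminin-injected explants, against 49.41, 102.4 and 108.9 in uninjected ones, with ratios of 0.387, 0.706 and 0.554 in experiments 1, 2 and 3. Injected experiments 2 and 3 exceeded uninjected experiment 1, so the deposited values of the groups overlapped, while within each pair the injected value was the lower one. For irx2.L the intensities were 24.78, 57.75 and 56.42 in Geminin-injected explants, against 45.21, 99.65 and 125.7 in uninjected ones, with ratios of 0.548, 0.580 and 0.449. Here too the injected value was lower in each pair. The pair with the high uninjected gmnn.L signal, experiment 3, gave the middle ratio of the 3 for irx1.L and the lowest for irx2.L. What this signal did to the ratios was not tested.

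On the normalised scale irx1.L was at 6.09 ± 0.47 in Geminin-injected and 6.79 ± 0.22 in uninjected explants at stage 12 (SD, n = 3 each), a difference of -0.70 ± 0.17 (SE, n = 3 pairs) or 1.63-fold lower in limma's paired fit (adjusted p = 0.00758). irx2.L was at 6.05 ± 0.19 and 6.81 ± 0.34, a difference of -0.76 ± 0.17 or 1.69-fold lower (limma adjusted p = 0.00421). Over all probe sets tested 17.6% were called lower at stage 12, and 16.7% had injected values all below the uninjected ones, as both genes had after normalisation. Calls of a fall at both stages were made for 5.21% of probe sets, irx1.L and irx2.L among them. Without the block and without the uninjected array of experiment 3 the differences at stage 12 were -0.65 (adjusted p = 0.197) for irx1.L and -0.62 (adjusted p = 0.139) for irx2.L in limma. Without the block alone irx1.L had adjusted p = 0.102 and irx2.L 0.0479. With the block kept and both arrays of experiment 3 left out, both genes passed. The differences were then -0.71 for irx1.L (limma adjusted p = 0.0225) and -0.66 for irx2.L (adjusted p = 0.0232). With a pseudocount of 64 in place of 16 the paired differences were -0.44 for irx1.L and -0.49 for irx2.L, both past the threshold.

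**Figure D2:**
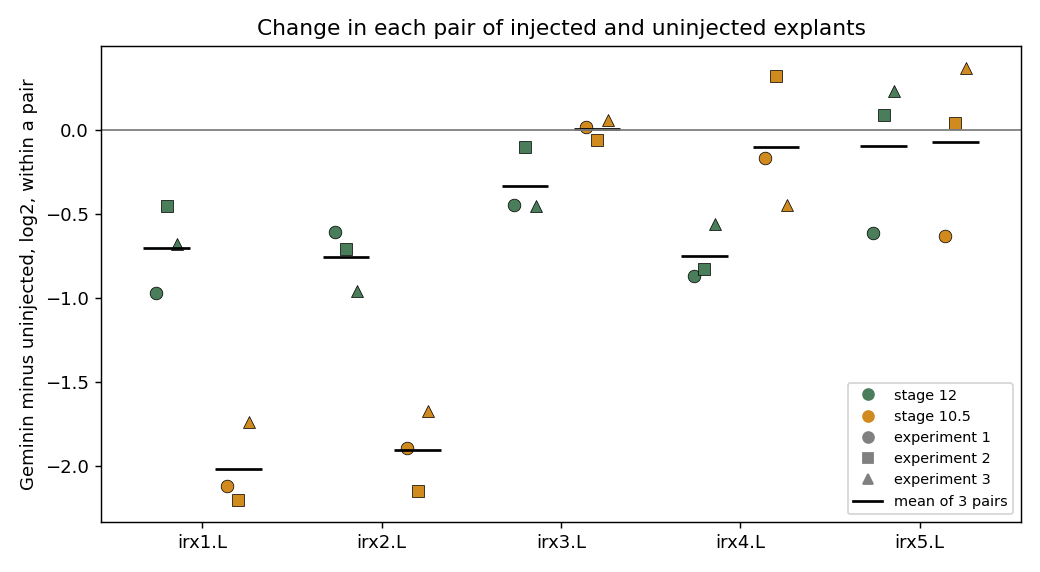
Geminin-injected minus uninjected normalised log2 value (y axis) in each of the 3 pairs per stage for the 5 Iroquois probe sets (x axis), with stage as colour, experiment as symbol and the mean of 3 pairs as a bar. The stage 12 changes of irx1.L and irx2.L run from -0.97 to -0.45, above their stage 10.5 changes of -2.20 to -1.67.

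Whether the Geminin effect itself differed between the stages was tested as a difference of differences. For irx1.L the effect was 1.32 ± 0.24 (SE, n = 6 pairs) less negative at stage 12 than at stage 10.5 (limma adjusted p = 0.0105), and for irx2.L 1.15 ± 0.23 (adjusted p = 0.0172). Of all probe sets tested 1.80% had a higher effect at stage 12 by this test. The test was sensitive to single pairs: without experiment 1 of stage 10.5, experiment 2 of stage 10.5 or experiment 2 of stage 12 neither gene passed (adjusted p of 0.0539 to 0.0983), with differences of 1.02 to 1.27. Without the replicate block adjusted p was 0.20 for both. A fall of the stage 10.5 size would have brought the genes to 4.77 (irx1.L) and 4.90 (irx2.L) at stage 12, above the 5th percentile of all values (4.43) and under the filter level (5.26). Whether low signal limited the fall at stage 12 was not tested.

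In uninjected explants irx1.L and irx2.L fell as gastrulation went on. On the normalised scale irx1.L was at 6.79 ± 0.22 at stage 12, against 8.04 ± 0.34 at stage 10.5 (SD, n = 3 each), and irx2.L at 6.81 ± 0.34, against 7.83 ± 0.29. The stages did not overlap for either gene. irx1.L fell by 1.25 ± 0.26 (SE) or 2.37-fold (limma adjusted p = 0.00404), and irx2.L fell by 1.02 ± 0.23 or 2.02-fold (limma adjusted p = 0.00578). Over all probe sets tested 16.5% were called lower at stage 12, and 24.3% had stage 12 values all below those of stage 10.5. On the deposited scale, whose array medians differ, the difference of irx2.L was -1.36 (adjusted p = 0.0681) and no longer passed. Without the uninjected stage 12 array of experiment 3 both still fell (irx1.L -1.31, limma adjusted p = 0.00992, and irx2.L -1.16, adjusted p = 0.00661).

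In Geminin-injected explants neither gene passed the test between the stages. The difference, stage 12 minus stage 10.5, was 0.07 ± 0.26 (SE) for irx1.L, with a 95% interval of -0.50 to 0.64 (limma adjusted p = 0.892), and 0.13 ± 0.23 for irx2.L, with an interval of -0.37 to 0.63 (adjusted p = 0.751). Of all probe sets tested 16.3% were called in either direction here. These stage comparisons use the same arrays as the injected against uninjected ones. The order of the levels was the same for both genes: the Geminin-injected groups of both stages were lowest and overlapped, uninjected stage 12 came next and uninjected stage 10.5 was highest. Every injected irx1.L value at stage 10.5 (5.91 to 6.08) was below every uninjected value of the later stage 12 (6.54 to 6.93). For irx2.L the ranges were 5.89 to 5.98 and 6.44 to 7.1. The share of all probe sets tested with such a gap between these groups was not counted. Injected values all below the uninjected ones of the same stage were found for 8.29% at stage 10.5 and 16.7% at stage 12. Between the uninjected stages 24.3% had stage 12 values all below those of stage 10.5.

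The genes irx1.L and irx2.L moved together across arrays. Their normalised levels correlated at r = 0.98 over the 12 arrays, which include the same 4 groups and so share the group differences. For each of them the other was first by this measure among all probe sets tested. Within pairs the change of irx1.L minus that of irx2.L was 0.06 ± 0.37 at stage 12 and -0.12 ± 0.10 at stage 10.5 (SD, n = 3 pairs each). At stage 12 the change of irx1.L was the more negative one in experiment 1 and the less negative one in experiments 2 and 3, and at stage 10.5 it was a little more negative in each pair, a design in which an exact two-sided sign-flip test cannot go below 0.25.

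The other members gave little signal. Deposited intensities of irx3.L, which acts in the early neural plate, were 9.46 to 13.63 in Geminin-injected and 11.24 to 13.43 in uninjected explants at stage 10.5, and 11.6 to 17.97 in Geminin-injected and 21.63 to 27.53 in uninjected explants at stage 12. The stage 12 groups did not overlap on the deposited scale but did after normalisation. The share of all probe sets without overlap on the deposited scale was not counted. After normalisation 16.7% of the probe sets tested had injected values all below the uninjected ones at stage 12. irx5.L, known in the mouse for roles in eye and heart, ranged from 1.0 to 43.95 in Geminin-injected and from 8.44 to 29.47 in uninjected explants at stage 10.5, and its highest values in both groups came from experiment 3. At stage 12 it was 8.23 to 9.84 in Geminin-injected and 5.04 to 22.26 in uninjected explants. The 3 probe sets had mean signals in the lowest 25% of the array and were not tested in the filtered fit.

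In the fit with no filter irx3.L, irx4.L and irx5.L did not pass at stage 10.5 (differences of 0.00, -0.10 and -0.07, limma adjusted p of 0.854 to 0.996, 7.38% of all probe sets called). The stage 12 differences were -0.33 ± 0.15 for irx3.L (adjusted p = 0.120) and -0.10 ± 0.21 for irx5.L (adjusted p = 0.763). For irx4.L at stage 10.5 the intensities were 9.55, 19.1 and 4.78 in Geminin-injected explants, against 13.26, 10.19 and 11.31 in uninjected ones, with overlap. irx4.L, which is known in chick and mouse for a role in ventricular heart muscle and neighbours irx2.L, had stage 12 intensities of 1.63, 1.98 and 14.96 in Geminin-injected explants and 14.63, 19.96 and 30.41 in uninjected ones. The injected value was lower in each pair, and the deposited values overlapped by injected experiment 3 and uninjected experiment 1. Its difference of -0.75 ± 0.17 passed in the fit with no filter (limma adjusted p = 0.00564, 30.8% of all probe sets called), but not without the block and the uninjected array of experiment 3 (adjusted p = 0.116). The difference passed without the block alone (adjusted p = 0.0416) and in the paired fit without experiment 3 (-0.85, adjusted p = 0.0101). Its size depended on the pseudocount, with -1.98 at a pseudocount of 1 and -0.27 at 64. Its highest value lay at the 28.5th percentile of its array, and whether such signals exceed background was not tested.

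**Figure D3:**
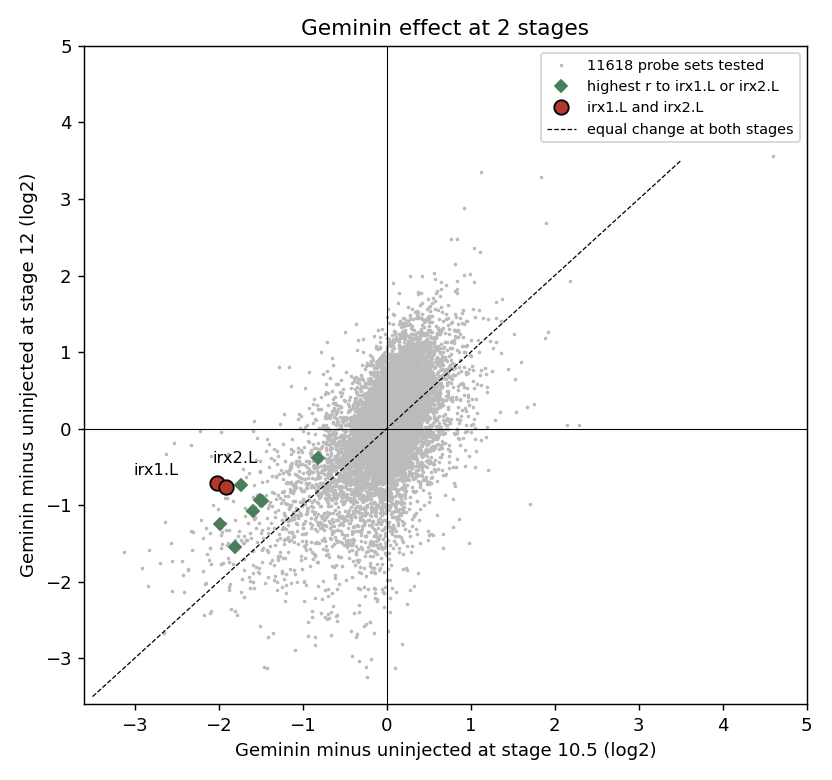
Geminin-injected minus uninjected log2 difference at stage 12 (y axis) against that at stage 10.5 (x axis) for the 11618 probe sets tested (grey), with irx1.L and irx2.L (red) and the probe sets whose levels correlated most with either (green). Both Iroquois genes lie left of and above the line of equal change, at -2.02 and -1.91 on the x axis and -0.70 and -0.76 on the y axis.

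The genes whose levels followed irx1.L and irx2.L most closely over the 12 arrays were mostly genes of transcription factors and a receptor. For irx1.L the 5 highest correlations were with foxi4.2.L, a forkhead factor gene (r = 0.97), fgfr4.S (0.96) and fgfr4.L (0.94), the copies of an FGF receptor gene, tfap2a.L, the AP-2 factor of epidermis and neural crest (0.95), and sall1.L, a zinc finger factor gene (0.95). For irx2.L they were with sall1.L (0.96), fgfr4.S (0.95), fgfr4.L (0.94), sall3.L (0.93) and ca4.1.S, a carbonic anhydrase gene (0.93). These probe sets were picked for their likeness over the same arrays, so a shared direction of change follows largely from the choice. In Geminin-injected against uninjected explants they all fell at stage 10.5, with changes from -1.99 (sall1.L) to -0.82 (sall3.L). At stage 12 they fell too, with changes from -1.55 (ca4.1.S) to -0.74 (foxi4.2.L), apart from sall3.L at -0.38 (limma adjusted p = 0.103). A second foxi4.2.L probe set did not follow (r = -0.28 with irx1.L, with changes of -0.28 at stage 12 and -0.07 at stage 10.5).

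**Figure D4:**
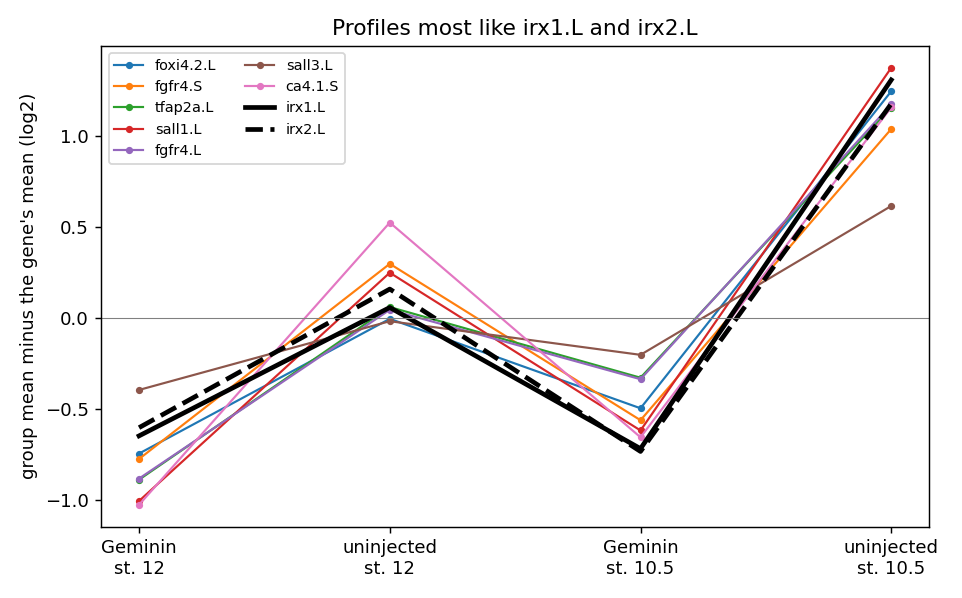
Group means of normalised log2 values after subtraction of each gene's own mean (y axis) in the 4 groups (x axis), for irx1.L and irx2.L (black) and the genes most correlated with either (colours). Each profile is highest in uninjected stage 10.5 explants, which follows largely from the choice by correlation. Lines join groups only to guide the eye.

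Likeness of the Geminin effect alone was measured as the root mean square difference over the 6 pair changes. By this measure irx1.L and irx2.L were 0.24 apart. Among all probe sets tested irx2.L was number 1 in closeness to irx1.L, while irx1.L was number 3 in closeness to irx2.L. sdc4.L, which encodes the cell surface proteoglycan syndecan 4, was the named gene outside the family closest to both, at 0.08 from irx2.L and 0.26 from irx1.L. It changed by -0.81 at stage 12 and -1.85 at stage 10.5 (limma adjusted p of 0.00216 and 5.38e-05), and its other probe sets gave -0.91 and -0.98 at stage 12 and -1.92 and -1.19 at stage 10.5. Unlike irx1.L and irx2.L, sdc4.L did not pass between the uninjected stages (-0.08, adjusted p = 0.896), and the difference between the genes was not tested. Next for irx1.L came foxi4.2.L (0.28), zmiz2.L (0.36), hal.1.L, which encodes a histidine-degrading enzyme (0.39), and a probe set of fgfr4.L (0.39). For irx2.L they were zmiz2.L (0.27), tuba5.S (0.32), nfe2.S (0.32) and atg16l1.L, an autophagy gene (0.33). Further probe sets of zmiz2.L, tuba5.S, nfe2.S and atg16l1.L disagreed in part, with stage 10.5 changes of -0.45 for zmiz2.L and 0.01 to -1.15, 0.15 to -1.30 and 0.03 to -1.43 for the other 3 genes. Those of tuba5.S at -1.15, nfe2.S at -1.30 and -0.87 and atg16l1.L at -1.43 were called lower (limma adjusted p of 0.000355 to 0.0177), and the rest did not pass.

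Iroquois genes act within the neural plate, upstream of proneural genes and beside BMP signalling, and genes of these processes were counted from lists. The .L and .S copies count separately, hes4 genes are in 3 of the lists and zic1.S in 2. The median difference of all probe sets tested was 0.09 at stage 12 and 0.05 at stage 10.5, with 17.6% called lower and 23.5% higher at stage 12 and 7.06% lower and 3.31% higher at stage 10.5. Without the block and the uninjected stage 12 array of experiment 3, 2 proneural, 4 neural plate, 4 placode and border and 12 BMP genes were called lower at stage 12, and 2 neural plate genes and none of the other lists were called higher. In that fit 696 of the 11618 probe sets tested were called lower and 466 higher, against 2048 and 2733 in the paired fit of all arrays. Of the 37 probe sets named here for their likeness or from these lists that were called at stage 12, 15 kept the call in that fit and 22 lost it. Lost from the lists were hes4.L, gadd45g.L, elavl3.L, szl.L, bambi.L, gata2.L, tfap2a.L, zic1.S, bmp4.S, bmp2.L and bmp2.S. The others that lost it were sdc4.L, fgfr4.S, the fgfr4.L probe sets, sall1.L, foxi4.2.L, zmiz2.L, hal.1.L, tuba5.S, nfe2.S and atg16l1.L. Without the block alone 25 kept the call. The 12 that already lost it were hes4.L, elavl3.L, gata2.L, bmp4.S, bmp2.L, bmp2.S, foxi4.2.L, sdc4.L, zmiz2.L, hal.1.L, tuba5.S and nfe2.S.

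Of 12 genes of the proneural and Notch list tested, 6 fell and none rose at stage 12, and 6 fell and none rose at stage 10.5, with medians of -0.61 and -0.65. dll1.L, the gene of a Notch ligand that proneural factors activate, fell at both stages (-2.13 at stage 12 and -2.41 at stage 10.5). Another ligand gene, dlc.L, fell likewise (-2.02 and -2.15). The growth arrest genes gadd45g.L and gadd45g.S changed by -1.19 and -0.21 at stage 12, of which the second did not pass, and fell at stage 10.5 (-2.21 and -1.23). The neuronal RNA-binding protein gene elavl3.L fell at both stages (-0.92 at stage 12 and -1.31 at stage 10.5), as did hes4.L, a transcriptional repressor gene (-0.95 and -0.97). The proneural genes neurog2.S (-0.32 at stage 12 and 0.31 at stage 10.5) and neurod1.L (-0.22 and 0.15) did not pass. Neither is among the 6 genes of the list with the smallest p. Their signal was dim, with group means of 5.42 to 5.79 and 5.06 to 5.65, near the filter level of 5.26. Whether such signals exceed background was not tested.

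The neural plate list was split. Of 18 genes tested 7 fell and 6 rose at stage 12, and 6 fell and 1 rose at stage 10.5, with medians of -0.35 and -0.32. The neural progenitor factor gene sox2.L fell at both stages (-1.24 at stage 12 and -1.38 at stage 10.5), and so did meis3.S, a gene of posterior neural patterning (-1.71 and -1.36). zic2.L rose by 1.93 at stage 12 and by 0.84 at stage 10.5, the second with limma adjusted p = 0.0495 and adjusted p of 0.0521 to 0.311 under 9 alternatives. sox3.S rose by 1.29 at stage 12 and had 0.49 at stage 10.5 (adjusted p = 0.163). The Wnt receptor gene fzd10.S fell by 2.69 at stage 12 and had -0.66 at stage 10.5 (adjusted p = 0.0650), and its other probe set gave -1.21 and -0.17.

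Of 14 placode and border genes tested 9 fell and 1 rose at stage 12, and 10 fell and none rose at stage 10.5, with medians of -0.92 and -1.33. The homeobox genes dlx3.S and dlx5.L fell at both stages (-1.22 and -1.24 at stage 12, -2.63 and -1.92 at stage 10.5). tfap2a.L fell (-0.95 at stage 12 and -1.48 at stage 10.5), and so did foxi1.L, an ionocyte factor gene (-2.44 and -1.78). The border gene pax3.L fell as well (-1.44 and -1.17), while its further probe sets gave -0.21 and -1.21 at stage 12 and 0.27 and -1.18 at stage 10.5. prdm1.S changed by -0.36 at stage 12 (adjusted p = 0.208) and fell by 2.09 at stage 10.5. The gene that rose at stage 12 was zic1.S (0.81), which fell by 1.16 at stage 10.5 and was named after its values were seen. Its other probe set gave -0.16 at stage 12 (limma adjusted p = 0.586), where it did not pass, and -0.94 at stage 10.5.

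Of 25 BMP signalling genes tested 23 fell and 2 rose at stage 12, and 17 fell and 2 rose at stage 10.5, with medians of -1.19 and -0.99. bmp4.S, the gene of the ligand against which Iroquois factors act, fell at both stages (-1.16 ± 0.25 at stage 12 and -1.57 ± 0.25 at stage 10.5, SE, n = 3 pairs, limma adjusted p of 0.00381 and 0.00163), and was singled out after its values were seen. The secreted regulator gene szl.L fell at both stages (-1.58 at stage 12 and -2.83 at stage 10.5). The pseudoreceptor gene bambi.L (-1.04 and -1.69) and gata2.L, a BMP-responsive factor gene (-1.76 and -2.70), fell as well. The homeobox genes msx1.S and msx1.L fell at both stages (-2.0 and -1.91 at stage 12, -0.99 and -2.43 at stage 10.5). The ligand gene bmp7.1.L fell by 2.03 at stage 12 and had -0.57 at stage 10.5 (adjusted p = 0.158). The 2 that rose were the ligand gene copies bmp2.L (0.73 and 0.96) and bmp2.S (0.52 and 0.64). At stage 12 both were dim, with group means of 4.43 uninjected and 5.16 injected for bmp2.L, and 4.64 and 5.16 for bmp2.S. These means lay under the filter level. Whether such signals exceed background was not tested.

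**Figure D5:**
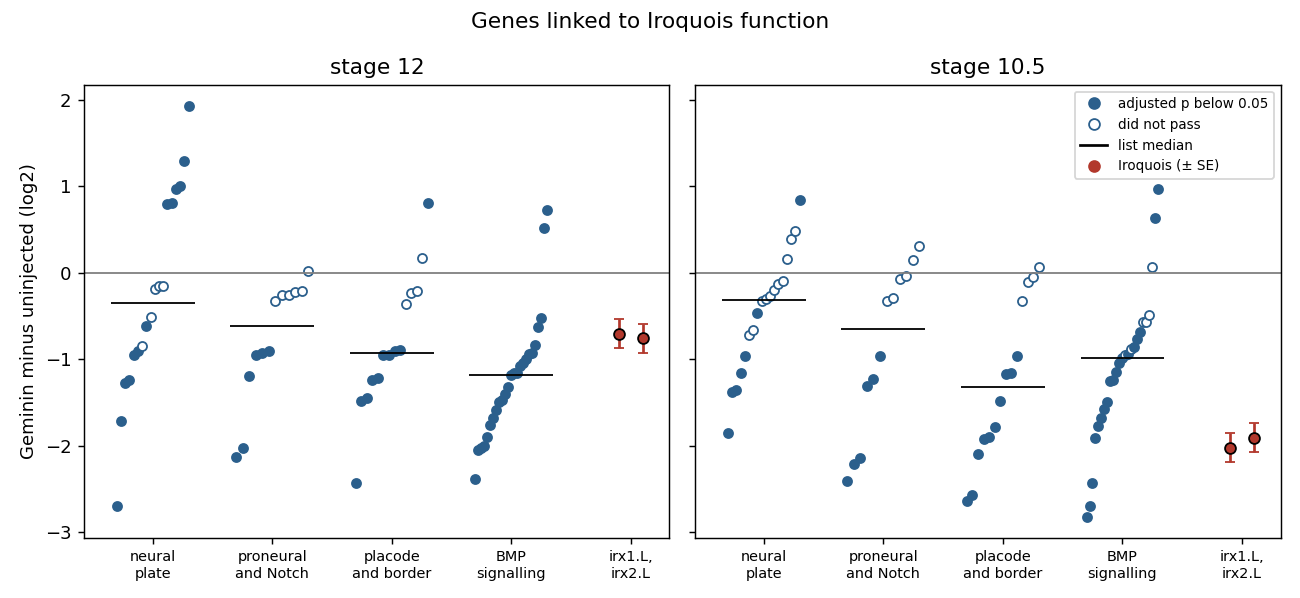
Geminin-injected minus uninjected log2 difference (y axis) of each gene tested in 4 lists (x axis) at stage 12 (left) and stage 10.5 (right), filled where adjusted p was below 0.05, with list medians as bars and irx1.L and irx2.L ± SE in red. The neural plate list holds genes on both sides of 0 at stage 12, while irx1.L and irx2.L are at -0.70 and -0.76.

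Markers of epidermis moved with the Iroquois genes under Geminin and against them over time. In Geminin-injected against uninjected explants 9 of 10 listed epidermal genes fell at stage 12 and 10 of 10 at stage 10.5. Of all probe sets tested 17.6% were called lower at stage 12, and 7.06% lower and 3.31% higher at stage 10.5. Without the block and the uninjected array of experiment 3, gata2.L and tfap2a.L lost the stage 12 call and dlx3.S kept it. The marker counts were not remade in that fit. The mean normalised level of the list was 9.43 to 9.51 on Geminin-injected and 10.68 to 10.96 on uninjected arrays at stage 12, and 7.0 to 7.94 on Geminin-injected and 8.75 to 10.08 on uninjected arrays at stage 10.5. The exception at stage 12 was the brightest probe set of krt70.S, a keratin gene (-0.21, limma adjusted p = 0.0508). Its other probe sets gave -0.93, which was called lower (adjusted p = 0.0305), -0.20 and -0.01. The genes dlx3.S, dlx3.L, tfap2a.L and gata2.L also stand in the border or BMP lists. In uninjected explants, where 15.2% of all probe sets tested were called higher at stage 12, 6 of the 10 rose and 1, tfap2a.L, fell at stage 12 against stage 10.5, while irx1.L and irx2.L fell. The mean level of 12 organizer genes was 4.92 to 5.08 on Geminin-injected and 5.01 to 5.16 on uninjected arrays at stage 12, and 4.79 to 4.85 and 4.88 to 4.93 at stage 10.5. Of 9 mesoderm genes on the array 2 were tested, of which none was called at stage 12 and 1, myod1.L, rose at stage 10.5 (0.84, limma adjusted p = 0.0117). Of 16 endoderm genes on the array 7 were tested, of which 5 fell at stage 12 and 1 fell and 1 rose at stage 10.5. Their mean level over the 16 genes was 4.92 to 5.26 on Geminin-injected and 5.52 to 5.63 on uninjected arrays at stage 12, and 5.12 to 5.35 on Geminin-injected and 4.98 to 5.33 on uninjected arrays at stage 10.5. The part of these cell types in the Iroquois values was not tested.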

How the data were processed

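Per the labels, the arrays measured total RNA, and the deposited value table holds an unlogged intensity for each probe set on each array. How the authors summarised probes, corrected background or scaled arrays is not stated in these sources. Log2 array medians ranged over 1.57, above the set limit of 0.2, so log2(intensity + 16) was quantile normalised over the 12 arrays. This scale understates the change of dim genes. The dimmest 25% of probe sets by mean (3873) were removed, leaving 11618 for testing. In the annotation 9304 probe sets had 1 gene symbol, 195 had several and 5992 had none. Symbols were updated through RefSeq gene identifiers (9227 matched, 2 changed). Probes can cross-hybridise between .L and .S copies.

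All models were fitted in R 4.3.3 with limma 3.58.1 (lmFit, eBayes with trend, Benjamini-Hochberg over all probe sets tested, threshold 0.05) on all 12 arrays, and the code was run on simulated data. The simulated experiments were independent, unlike the closely alike experiments 2 and 3 of stage 12. That run therefore cannot vouch for the calls that depend on the block. Experiments of a stage entered as blocks for injected against uninjected explants (4 residual degrees of freedom), since the series' design text pairs the samples of an experiment. Deviations of same-numbered arrays from their group means correlated at 0.424 to 0.797. Stages were compared without a block (8 degrees of freedom), since no label links experiments across stages. The uninjected stage 12 array of experiment 2 was grouped by its title and stage label, although its description names stage 10.5. Named genes are the irx probe sets, the 5 most like irx1.L and irx2.L by each of 2 measures, and up to 6 per list by smallest p, with the brightest probe set per gene. The members and lists were chosen with earlier results of these data known. Alternatives were other filters, pseudocounts of 1 and 64, the deposited scale, median centring, no trend, only the arrays compared, no block, each pair left out, and stage 12 experiments 2 and 3 averaged. Where labels do not say that samples came from separate egg batches, p-values measure only the spread between these samples. The number of arrays limits the precision.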

Additional observations from a re-analysis of the deposited data

Results flagged for a closer look

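For these genes the Geminin effect at stage 12 minus that at stage 10.5, tested as a difference of differences in limma, was past the threshold. The difference was 1.32 for irx1.L and 1.15 for irx2.L. In the listed genes it was -2.03 for fzd10.S, -1.46 for bmp7.1.L, -1.01 for msx1.S, 1.02 for gadd45g.S, 1.42 for dlx3.S and 1.74 for prdm1.S. It was also 1.97 for zic1.S, whose Geminin effect changed sign between the stages on this probe set and not on its other one, and -1.22 for smad6.L, an inhibitory Smad gene. Both were named after their values were seen. Among the genes most like irx1.L or irx2.L it was 1.00 for foxi4.2.L, 1.04 for sdc4.L, 1.05 for zmiz2.L, 0.848 for hal.1.L, 0.588 for tuba5.S and 0.965 for atg16l1.L. The genes of the last group were picked for changes like those of the Iroquois genes, so their agreement in sign follows from the choice. At stage 10.5 the uninjected means of fzd10.S, bmp7.1.L and msx1.S were 5.76 to 6.21, against at least 8.58 at stage 12. Their injected means at stage 10.5 were 5.09, 5.63 and 5.22, the first and last under the filter level. Whether low signal limited their fall at stage 10.5 was not tested. smad6.L was brighter there, with an uninjected mean of 8.37. Adjusted p over the 16 genes ranged from 0.00352 to 0.0477. Without the replicate block irx1.L and irx2.L lost the call, as did 13 of the 14 other genes, zic1.S being the exception (adjusted p = 0.0227). Over all probe sets the calls for this difference were then 4 higher and 30 lower, against 209 and 461 with it.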

How the results depend on the processing

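The falls of irx1.L and irx2.L at stage 10.5 passed under all 12 alternatives (irx1.L -2.33 to -1.46, irx2.L -2.23 to -1.34, highest adjusted p = 0.00335), and the uninjected stage fall of irx1.L under all 16. At stage 12, with no replicate block, irx1.L (-0.704) had adjusted p = 0.102, and with the uninjected array of experiment 3 also left out irx1.L gave -0.647 and irx2.L -0.616, neither past the threshold. The paired fits without 1 experiment of stage 12 gave -0.829 to -0.569 for irx1.L and -0.836 to -0.659 for irx2.L, all past it. For the difference between the stages with no replicate block, irx1.L (1.32) and irx2.L (1.15) lost the call, as they did at 1.38 and 1.29 with the uninjected array of experiment 3 also left out. Without 1 experiment the difference ran from 1.19 to 1.46 for irx1.L and from 1.02 to 1.26 for irx2.L. On the deposited scale the uninjected stage difference of irx2.L was -1.36 and not past the threshold. The stage difference in Geminin-injected explants, called nowhere, changed sign on the deposited scale (irx1.L -0.171, irx2.L -0.0998) and, for irx1.L, with stage 12 experiments 2 and 3 averaged (-0.0604), and without 1 experiment ran from -0.123 to 0.331 for irx1.L. Of the dim genes at stage 10.5, irx3.L turned to -0.0152 (pseudocount 1), -0.0356 (deposited scale), -0.0187 (median centring) and, without 1 experiment, to -0.0246 at lowest and 0.0346 at highest. irx4.L and irx5.L without 1 experiment ran from -0.309 to 0.0743 and from -0.296 to 0.207, and irx5.L was 0.0092 at pseudocount 64. At stage 12 irx5.L without 1 experiment ran from -0.264 to 0.159, and neurod1.L from -0.463 to 0.00949. The cause of these changes was not tested. Without the block the calls at stage 10.5 were 240 lower and 22 higher, against 820 and 385, and at stage 12 894 and 615, against 2048 and 2733, and for the difference between the stages 30 and 4, against 461 and 209. The block changed the list counts too: without it 3 in place of 6 neural plate genes were lower at stage 10.5, and at stage 12 4 in place of 7 were lower, 3 in place of 6 higher, and 3 in place of 6 proneural genes lower. Of the genes called higher without it, the neural plate list had 0 in place of 1 at stage 10.5, and the BMP list had 0 in place of 2 at either stage. Signal limits what irx3.L, irx4.L and irx5.L can show.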
